A study of Homo sapiens with 11 samples.

Results

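The comparison described here set MDA-MB-468 cells given TNF (written TNFɑ in the labels) together with apigenin against MDA-MB-468 cells given TNF alone. It used 6 of the 11 arrays of the series: 3 arrays of TNF plus apigenin and 3 arrays of TNF, chosen by their titles. MDA-MB-468 is an established human breast cancer line that grew out of a pleural effusion and lacks the oestrogen, progesterone and HER2 receptors. All cultures were of this 1 line in high-glucose medium with serum. TNF was given at 40 ng/ml and apigenin at 40 µM, both prepared in a buffered salt solution at doses the labels call sub-lethal, and RNA was taken after 24 h. The other 5 arrays were 3 of untreated cells (control) and 2 of apigenin without TNF, and they entered the same fit. The titles speak of triplicates and do not say why apigenin alone has 2 arrays, nor whether the replicates were separate cultures. P-values here reflect nothing beyond array-to-array spread, possibly technical, and the small number of arrays limits the precision.

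TNF is an inflammatory cytokine. It binds receptors at the cell surface, whose adaptor proteins switch on the IKK kinases; these free NF-kB dimers from their inhibitors, and the dimers enter the nucleus and turn on chemokine, complement and adhesion genes along with the inhibitors that later shut the pathway down. In epithelial cells TNF also raises some genes of the interferon response. Apigenin is a plant flavone, a small polyphenol studied for its effects on kinase signalling, inflammation and cell division. The comparison asks what apigenin changes in cells that are already exposed to TNF.

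Values are the deposited log2 values of GeneChip Human Gene 2.1 ST arrays, so a difference of 1 is a doubling. Each gene is represented by its probe set of highest mean across the 11 arrays, among those with exactly 1 gene symbol. The median probe set had a mean of 2.53, and a gene near that value is close to background, where its fold is not given. Levels of different genes are not compared. In bulk RNA, fewer cells of a type and less RNA per cell cannot be told apart. Across the 6 arrays the median over tested genes lay between 4.08 and 4.32. Array 3 of TNF plus apigenin had the lowest median (4.08) and the narrowest interquartile range (2.63, against 2.74 to 2.91 on the other 5). Results that rest on this array are given with and without it. Of 12 listed markers of the line, 10 were measured, 9 were tested and 8 stood at least 1 log2 unit above background with TNF. EGFR, amplified in this line, averaged 10.97 with TNF, and the oestrogen receptor gene ESR1 (2.31) lay at background, which fitted the label. The genes of the progesterone and HER2 receptors were not among those tested.

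Of 15865 genes tested, 61 rose and 108 fell when apigenin was added to TNF (limma, Benjamini-Hochberg adjusted p under 0.05). These are 1.07% of the genes tested, 0.384% higher and 0.681% lower. Over all genes tested 8317 changes were positive and 7544 negative, which is the background for the sign counts of lists below. At an unadjusted p under 0.05 the counts were 941 higher (5.93%) and 825 lower (5.2%), and the median change over all genes was 0.02 on the log2 scale. Without array 3 of TNF plus apigenin that median was 0.08, and a list's median without this array stands in brackets where it moved by over 1.5 times or changed sign. The genes that fell did so by a median of 2.12-fold, with changes between -2.61 and -0.77. The genes that rose did so by a median of 2.23-fold, with changes between 0.84 and 2.37. The excess of lower over higher calls was absent without array 3 of TNF plus apigenin, where 59 genes were called higher and 48 lower. Without array 2 of TNF 39 were called higher and 46 lower. Over all arrays, quantile normalization gave 174 higher and 336 lower, and array weights 221 higher and 170 lower. When each of the 6 arrays was left out in turn, 42 of the 108 lower calls and 18 of the 61 higher calls held in all 6 fits. The 3 and 3 arrays did not overlap for any of the 169 called genes, and they did not overlap for 15.7% of all genes tested (8.62% higher, 7.05% lower). Values against control, which use the same arrays, are given beside the results; TNF against control called 111 genes (0.7%, with 0.473% higher and 0.227% lower) and both agents against control 447 (2.82%, with 1.04% higher and 1.78% lower).

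**Figure D1:**
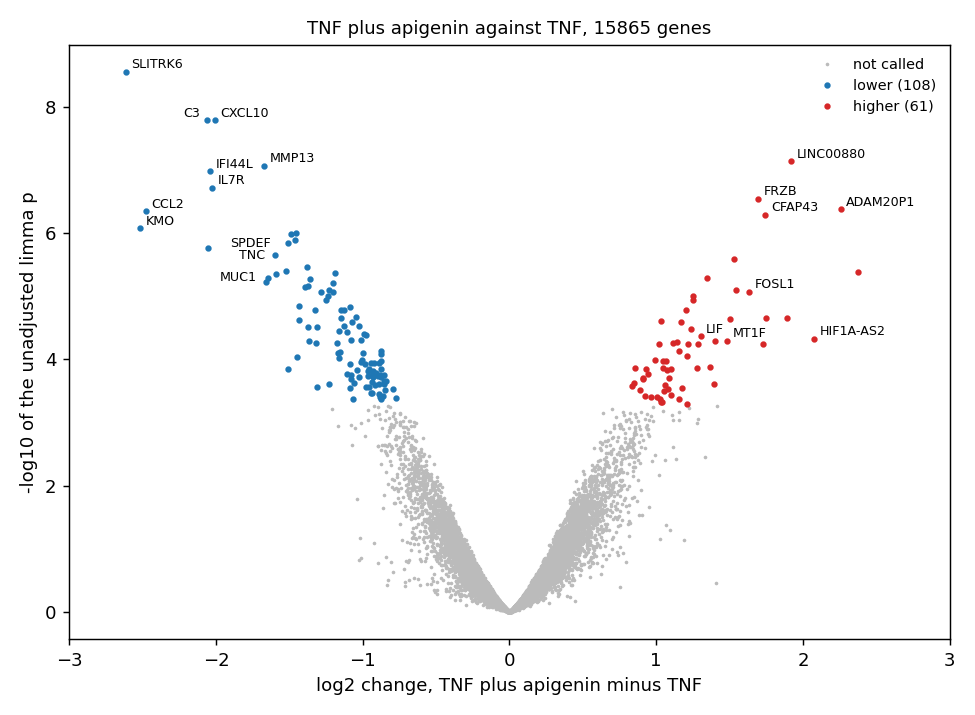
Log2 change (TNF plus apigenin minus TNF, x axis) against -log10 of the unadjusted limma p (y axis) for 15865 genes; blue points are the 108 genes called lower, red points the 61 called higher and grey points the rest. The largest falls are those of SLITRK6 (-2.61), KMO (-2.52) and CCL2 (-2.47), and the named rises include ADAM20P1 (2.26) and HIF1A-AS2 (2.08).

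Among secreted signals, the chemokines CCL2 and CXCL10 fell with added apigenin while CXCL8 and CCL20 did not pass the test. CCL2, which draws monocytes, read 8.07, 8.60 and 8.48 on the TNF arrays and 6.33, 6.0 and 5.41 on the arrays with apigenin added. All 3 arrays with apigenin lay below all 3 without it, with array 3 the lowest. The fall was 2.47 ± 0.29 on the log2 scale (SE), or 5.56-fold (limma adjusted p = 0.000719), and without array 3 of TNF plus apigenin the change was -2.22. Control CCL2 was at background (2.51), so its distance from control has only a lower bound; the measured differences were 3.41 with both agents and 5.88 with TNF alone. CXCL10, which draws activated T cells, read 7.27, 7.56 and 7.16 with TNF and 5.21, 5.44 and 5.32 with TNF plus apigenin. The groups were separated by more than 1 log2 unit, and the change was -2.01 ± 0.18, a 4.02-fold fall (limma adjusted p = 8.63e-05). Control CXCL10 was also at background (2.42), and the measured difference of 2.91 between both agents and control is likewise a lower bound.

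CXCL8, the neutrophil chemokine, read 7.81, 7.92 and 7.84 with TNF and 7.46, 8.27 and 7.64 with apigenin added, so the groups overlapped. Its change was -0.07, with a 95% interval from -0.58 to 0.45 (limma adjusted p = 0.968). CCL20, a chemokine for dendritic cells and T helper cells, changed by 0.73, with an interval from -0.01 to 1.46 (limma adjusted p = 0.457). It varied widely within both groups, from 4.36 to 5.75 with TNF and from 5.49 to 6.52 with both agents. Of the 17 chemokine genes tested, 2 fell, none rose and 15 did not pass. The list's median change was -0.10 (-0.06 without array 3), against 0.02 over all genes.

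The promoters of CXCL10 and of TNFAIP3, an NF-kB feedback gene are shown because both genes are textbook NF-kB targets, of which CXCL10 was called and TNFAIP3 was not; the difference between them was not tested. Each runs from 250 bases before to 50 bases after the RefSeq start (GRCh38.p14), on the gene's strand, 5′ to 3′. Capitals mark matches, on either strand, to the NF-kB consensus and, in CXCL10, also to the interferon-stimulated response element (ISRE), searched as TTTC, any 2 bases, TTTC. The matches do not overlap.
CXCL10 (chr4:76023448-76023747, minus strand): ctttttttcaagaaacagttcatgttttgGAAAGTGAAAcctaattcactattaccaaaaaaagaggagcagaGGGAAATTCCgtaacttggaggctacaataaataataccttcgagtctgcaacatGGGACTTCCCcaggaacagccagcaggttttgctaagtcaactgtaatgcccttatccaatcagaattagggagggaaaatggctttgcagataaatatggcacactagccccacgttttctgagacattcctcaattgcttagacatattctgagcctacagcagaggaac
TNFAIP3 (chr6:137867009-137867308, plus strand): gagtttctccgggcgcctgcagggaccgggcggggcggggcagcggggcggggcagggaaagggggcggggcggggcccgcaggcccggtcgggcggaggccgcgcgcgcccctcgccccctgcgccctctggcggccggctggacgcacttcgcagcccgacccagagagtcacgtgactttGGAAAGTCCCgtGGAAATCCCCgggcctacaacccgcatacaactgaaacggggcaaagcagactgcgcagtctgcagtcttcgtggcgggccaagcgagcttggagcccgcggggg
Each promoter held 2 matches to the NF-kB consensus, and CXCL10 held 1 ISRE match farther upstream. Among all 27305 RefSeq promoters of this length, 5.72% held an NF-kB match and 3.65% an ISRE match. Among tested genes with a promoter, 6.81% held an NF-kB match. The share was 7.41% (6 of 81) for the genes that fell and 5% (2 of 40) for those that rose. An NF-kB match was found in 7 of the 12 tested chemokine genes with a promoter in the table and in 4 of the 11 tested feedback inhibitors. A match is a description of the sequence and not evidence of binding.

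Of the 24 cytokine and growth factor genes tested, LIF rose, TNFSF10 and INHBA fell, and the median change was -0.07. LIF, a cytokine of the interleukin 6 family, read 5.55, 5.66 and 5.49 with TNF and 7.18, 6.82 and 6.61 with both agents. It rose by 1.30 ± 0.23, or 2.47-fold (limma adjusted p = 0.0104), and its call was lost without array 1 of TNF plus apigenin, where the change was 1.15. LIF stood 2.30 above control with both agents and 1.0 above control with TNF. TNFSF10, which encodes the death ligand TRAIL, fell by 1.13 ± 0.18 (limma adjusted p = 0.00564), from 8.24 to 7.12. INHBA, a subunit of activin, changed from 4.04 to 2.81, and its call was lost whichever of the 6 arrays was left out, with changes between -1.31 and -1.14. The probe set for TNF itself read 5.98, 5.85 and 5.29 with TNF and 5.98, 5.91 and 5.52 with both agents, a change of 0.09 with an interval from -0.33 to 0.52.

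Among 23 cytokine receptor genes, 2 fell, none rose, and the median change was -0.12 (-0.01 without array 3). IL22RA2 encodes a secreted receptor that binds interleukin 22 and blocks it. It read 6.74, 6.79 and 6.78 with TNF and 4.66, 5.16 and 4.34 with both agents, and fell by 2.05 ± 0.27, or 4.15-fold (limma adjusted p = 0.00163). IL7R, the interleukin 7 receptor chain, read 5.47, 5.79 and 5.21 with TNF and 3.44, 3.56 and 3.40 with both agents, a fall of 2.02 ± 0.22, or 4.07-fold (limma adjusted p = 0.00043). With both agents IL7R differed from control by 0.18, which did not pass the test (limma adjusted p = 0.767), against 2.20 above control with TNF alone. IL7R was within 1 log2 unit of background (2.53) in control (3.29) and with both agents (3.47), which limits how far a fall could be followed. Both receptors were separated between the groups on every array.

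The NF-kB pathway itself showed 1 call, in a kinase. IKBKE, an IKK-related kinase, read 6.15, 5.97 and 5.97 with TNF and 5.35, 4.97 and 4.89 with both agents, a change of -0.96 ± 0.19 (limma adjusted p = 0.0216). Its call was lost on leaving out any 1 of the 6 arrays other than array 1 of TNF plus apigenin, with changes between -1.10 and -0.87. The other 14 of 15 IKK complex and related kinase genes did not pass, and neither did any of 18 TNF receptor and adaptor genes, whose median change was 0.11 (0.18 without array 3). TNFRSF10B, a TRAIL receptor, changed by 0.57 (limma adjusted p = 0.402) and the adaptor TRADD by 0.39 (adjusted p = 0.508). Of the 5 NF-kB subunit genes none passed, with changes between -0.05 and 0.19. RELA changed by 0.15, with an interval from -0.27 to 0.57, and NFKB2 by 0.19, with an interval from -0.23 to 0.62. These are transcript levels, and protein location was not measured.

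The feedback inhibitors of NF-kB did not pass the test. TNFAIP3, which encodes the ubiquitin-editing enzyme A20, read 7.36, 7.22 and 6.99 with TNF and 7.68, 7.60 and 7.14 with both agents, and these ranges overlapped. Its change was 0.28, with an interval from -0.13 to 0.69 (limma adjusted p = 0.671). NFKBIA, which encodes the inhibitor IkB-alpha, changed by 0.43, with an interval from -0.01 to 0.87 (limma adjusted p = 0.457). NFKBIB, a relative of NFKBIA, changed by -0.27 (limma adjusted p = 0.683). Over the 12 inhibitors tested the changes lay between -0.27 and 0.43, none had an unadjusted p under 0.05, and the median was 0.13 (0.24 without array 3 of TNF plus apigenin). The adhesion molecule ICAM1, a classic NF-kB target, changed by -0.17, with an interval from -0.61 to 0.27 (limma adjusted p = 0.844), and overlapped between the groups.

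Of 23 NF-kB target genes, ICAM1 among them, 3 fell (median change over the list -0.01, and 0.14 without array 3 of TNF plus apigenin), and all 3 belong to complement and the acute phase response. C3, the central complement component, read 7.67, 7.48 and 7.18 with TNF and 5.40, 5.40 and 5.34 with both agents. It fell by 2.06 ± 0.19, or 4.18-fold (limma adjusted p = 8.63e-05), and with both agents it stood 0.53 above control, against 2.59 with TNF alone. CFB, complement factor B of the alternative pathway, fell by 1.49 ± 0.19 (limma adjusted p = 0.00115), from 6.55 ± 0.23 to 5.06 ± 0.07 (SD, n = 3 each). SAA1, an acute phase protein with a near-identical neighbour gene that can share probes, fell by 1.37 ± 0.23 (limma adjusted p = 0.00828). CP, the copper carrier ceruloplasmin, fell by 1.2 ± 0.18 (limma adjusted p = 0.00336), from 7.67 to 6.47. These 4 were all the calls among 13 complement and acute phase genes, whose median change was -0.14 (-0.09 without array 3). All 4 stayed called whichever of the 6 arrays was left out.

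The kynurenine pathway, which breaks down tryptophan, had 2 calls among 8 tested genes, with a median change of -0.23 (-0.15 without array 3 of TNF plus apigenin). KMO, the enzyme that hydroxylates kynurenine, read 7.70, 7.87 and 7.57 with TNF and 5.31, 5.26 and 5.03 with both agents. Its fall of 2.52 ± 0.31, or 5.72-fold (limma adjusted p = 0.00112), separated the groups by more than 2 log2 units. With both agents KMO was 0.56 above control (limma adjusted p = 0.422), against 3.07 with TNF alone. KYNU, the next hydrolase of the pathway, changed from 8.02 to 7.16, by -0.85 ± 0.18 (limma adjusted p = 0.0264). The KYNU call was lost on leaving out any 1 of the 6 arrays other than array 2 of TNF plus apigenin, with changes between -0.97 and -0.70.

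**Figure D2:**
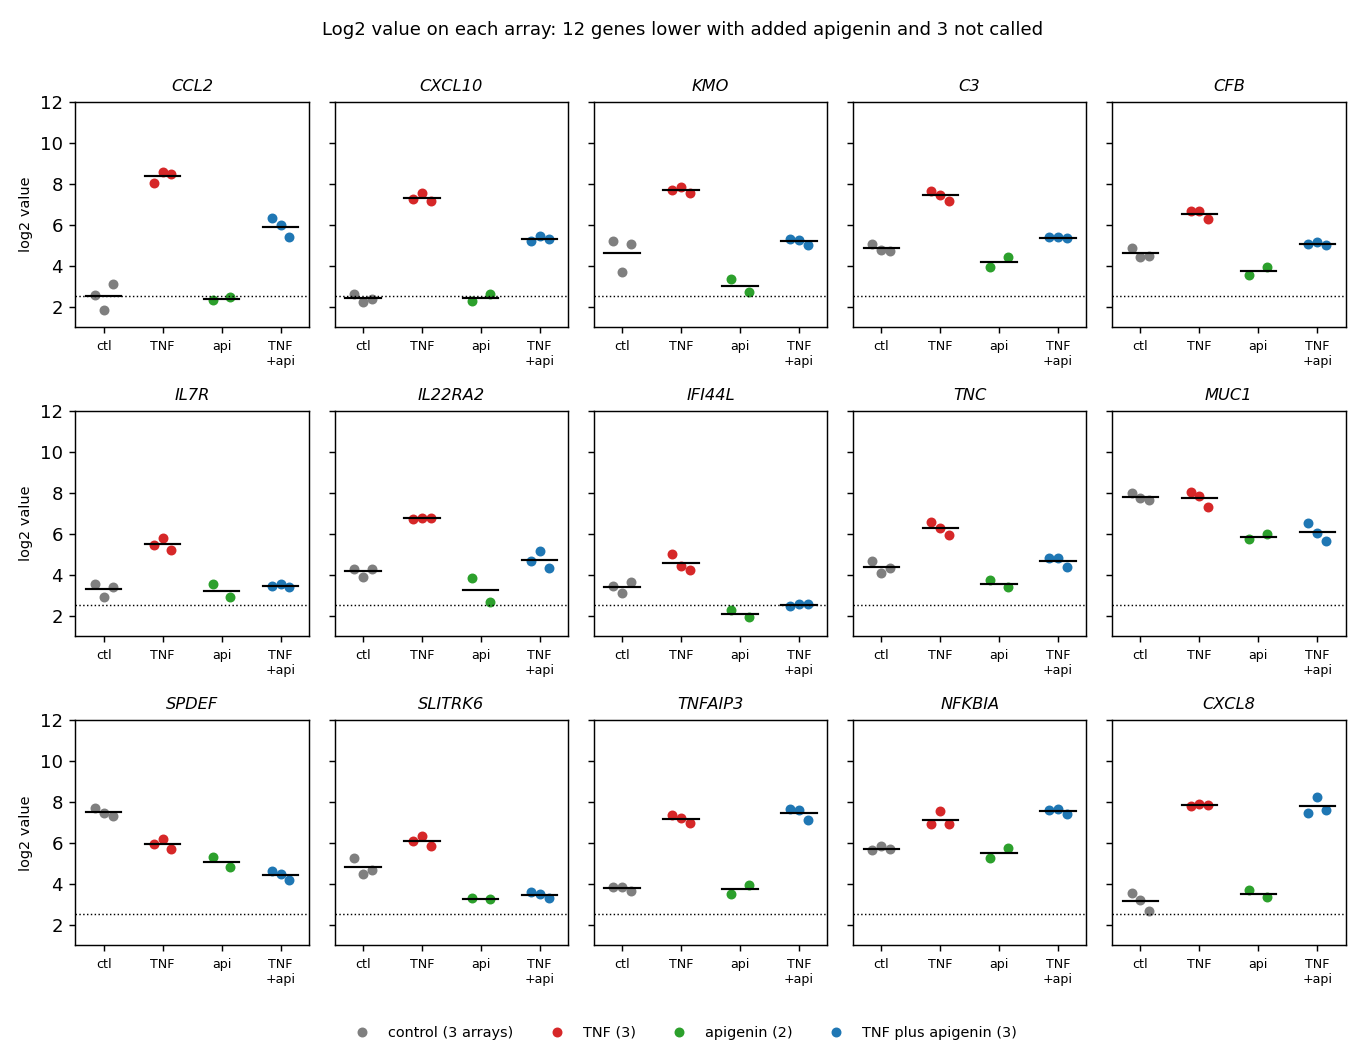
Log2 value on each array (points) and group mean (bars) for 12 genes called lower when apigenin was added to TNF and for TNFAIP3, NFKBIA and CXCL8, which were not called; the dotted line is the median probe set mean, 2.53. For the 12 called genes the 3 blue points (TNF plus apigenin) lie below the 3 red points (TNF), and for TNFAIP3, NFKBIA and CXCL8 they overlap.

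Interferon-stimulated genes, which encode antiviral proteins, lay below zero as a list, and 5 of 42 fell, against 0.681% of all genes tested. The median change was -0.37 and 36 of the 42 were negative, with 16 at an unadjusted p under 0.05, all lower. IFI44L read 5.02, 4.45 and 4.24 with TNF and 2.46, 2.56 and 2.57 with both agents, where it was at background. Its change was -2.04 ± 0.21 on the log2 scale (limma adjusted p = 0.000279), and its neighbour IFI44 fell by 1.14 ± 0.19, or 2.21-fold (adjusted p = 0.00709). IFIT1 changed by -1.09 ± 0.23 (limma adjusted p = 0.0308), also to background. IFITM1, whose family members are alike in sequence, changed by -0.88 (limma adjusted p = 0.0239), and OAS1, which senses double-stranded RNA, by -0.84 (adjusted p = 0.0268). Without array 3 of TNF plus apigenin the calls of IFIT1 (-0.99), IFITM1 (-0.83) and OAS1 (-0.82) were lost and 2 genes remained called, IFI44L and IFI44. IFIT1 was also lost without TNF 1, TNF 3 or TNF plus apigenin 2, OAS1 without TNF 1 or 2 or TNF plus apigenin 1 or 2, and IFITM1 whichever of the 6 arrays was left out. Over these fits the changes lay between -1.26 and -0.91 for IFIT1, -0.94 and -0.79 for IFITM1, and -0.92 and -0.68 for OAS1. Against control, TNF alone changed OAS1 by -0.11, IFITM1 by -0.21, IFI44 by 0.27, IFIT1 by 0.70 and IFI44L by 1.16. Of these only IFI44L was called. Apigenin alone changed them by -0.90, -1.12, -1.39, -0.42 and -1.31, all called lower except IFIT1. With apigenin alone the list's median was -0.65 (-0.18 over all genes), and 11 of the 42 were called lower (3.44% of all genes). Among the 16 interferon factors and STATs none passed; IRF9, an interferon regulatory factor, changed by -0.74 (limma adjusted p = 0.0741) and STAT3 by -0.56 (adjusted p = 0.201).

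The promoters of IFIT1 and IFI44L are shown because the list's members moved to the same side and these genes carry the motif the list is named for. Capitals mark ISRE matches on either strand.
IFIT1 (chr10:89392373-89392672, plus strand): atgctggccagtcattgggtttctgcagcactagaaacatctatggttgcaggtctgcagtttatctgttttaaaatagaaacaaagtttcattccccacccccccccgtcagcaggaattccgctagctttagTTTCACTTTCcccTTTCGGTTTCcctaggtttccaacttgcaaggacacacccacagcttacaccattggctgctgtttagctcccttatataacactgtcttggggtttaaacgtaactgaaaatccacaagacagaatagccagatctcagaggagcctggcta
IFI44L (chr1:78620198-78620497, plus strand): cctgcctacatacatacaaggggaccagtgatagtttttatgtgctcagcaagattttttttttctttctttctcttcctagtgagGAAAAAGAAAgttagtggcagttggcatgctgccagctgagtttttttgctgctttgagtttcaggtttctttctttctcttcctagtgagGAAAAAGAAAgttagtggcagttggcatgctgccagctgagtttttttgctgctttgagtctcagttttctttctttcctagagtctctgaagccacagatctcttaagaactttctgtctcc
Each held 2 ISRE matches. Of the 33 tested interferon-stimulated genes with a promoter in the table, 23 (69.7%) held a match, against 3.65% of all promoters. Of the 81 genes that fell and had a promoter available, 8 (9.88%) held one, which includes members of this list. Of the 40 such genes that rose, 2 (5%) held one, against 2.67% of tested genes with a promoter.

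Genes of luminal and secretory epithelium accounted for 4 further falls among 28 tested, with a list median of -0.14 (-0.08 without array 3 of TNF plus apigenin). SPDEF, an ETS transcription factor, read 5.96, 6.19 and 5.72 with TNF and 4.62, 4.49 and 4.22 with both agents. It fell by 1.51 ± 0.20, or 2.85-fold (limma adjusted p = 0.00144). SPDEF was lower than control in both groups, by 1.56 with TNF and by 3.07 with both agents. The mucin gene MUC1, which encodes a surface glycoprotein, read 8.05, 7.85 and 7.31 with TNF and 6.55, 6.06 and 5.67 with both agents, a fall of 1.64 ± 0.24, or 3.12-fold (limma adjusted p = 0.00312). MUC15, another membrane mucin, fell by 1.15 ± 0.18 (limma adjusted p = 0.00564). CYP4X1, a cytochrome P450, changed by -0.89 (limma adjusted p = 0.0278), and its call was lost without TNF 1 or 2 or any array of TNF plus apigenin, with changes between -1.01 and -0.77. Among 22 basal, squamous and S100 genes only S100A7A was called, with a change of -1.37 (limma adjusted p = 0.0114). Its family members are alike in sequence, and its call was lost without TNF 2 or TNF plus apigenin 2 or 3 (changes between -1.56 and -1.22).

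SLITRK6, a membrane protein of neurite growth and a surface antigen of some epithelial cancers, had the largest fall of all genes tested. It read 6.10, 6.35 and 5.86 with TNF and 3.63, 3.53 and 3.30 with both agents, a gap of more than 2 log2 units between the groups. The change was -2.61 ± 0.21, or 6.12-fold (limma adjusted p = 4.41e-05), and it was -2.52 without array 3 of TNF plus apigenin. The other largest falls outside the lists were those of PLEKHS1, a pleckstrin homology protein (-1.66 ± 0.24, limma adjusted p = 0.00336), and CHI3L2, a chitinase-like secreted protein (-1.59 ± 0.23, adjusted p = 0.00291). BBOX1, the last enzyme of carnitine synthesis, fell by 1.52 ± 0.21 (limma adjusted p = 0.00291), from 4.32 to 2.80. The pseudogene FMO6P changed by -1.51 ± 0.30 (limma adjusted p = 0.0208). Its sequence is close to its coding relatives, and its call was lost without TNF 2 or TNF plus apigenin 2 or 3 (changes between -1.73 and -1.23).

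Matrix proteins and proteases had 3 falls each. TNC, the matrix glycoprotein tenascin C, read 6.59, 6.27 and 5.95 with TNF and 4.81, 4.82 and 4.40 with both agents, and fell by 1.6 ± 0.21, or 3.02-fold (limma adjusted p = 0.00197). With both agents it was 0.31 above control, against 1.91 with TNF alone. FN1, which encodes fibronectin, changed by -1.08 (limma adjusted p = 0.0235) and TGFBI, a matrix protein induced by TGF-beta, by -0.94 (adjusted p = 0.0349). Each of these calls was lost without TNF 1 or 2 or any array of TNF plus apigenin (-1.24 to -0.90 for FN1, -1.10 to -0.70 for TGFBI). Of 17 matrix genes 16 were negative, and the median was -0.35. MMP13, an interstitial collagenase, read 3.40, 3.52 and 3.15 with TNF and 1.65, 1.64 and 1.78 with both agents, where it was below the median probe set. Its change was -1.67 ± 0.17 (limma adjusted p = 0.000275). CTSS, the lysosomal protease cathepsin S, fell by 1.24 ± 0.19, or 2.36-fold (limma adjusted p = 0.00407). MMP7, matrilysin, changed from 7.52 to 6.64 (limma adjusted p = 0.0209) and lost its call without TNF 1 or 2 or TNF plus apigenin 1 or 3 (changes between -0.97 and -0.78). The 22 protease and inhibitor genes had a median of -0.03 (0.02 without array 3 of TNF plus apigenin). None of 20 integrin and cadherin genes passed; ITGAV changed by -0.74 (limma adjusted p = 0.0694).

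Mitotic genes lay mostly below zero, with 3 calls, and their medians rested in part on array 3 of TNF plus apigenin. KIF20A, a kinesin of the central spindle needed for cytokinesis, read 7.5, 7.48 and 7.39 with TNF and 6.3, 6.28 and 5.67 with both agents. It fell by 1.37 ± 0.20, or 2.58-fold (limma adjusted p = 0.00359), and array 3 was the lowest of the 3; without it the change was -1.16 (adjusted p = 0.0177). All 12 mitotic kinesins were negative, with a median of -0.32 (-0.19 without array 3). Among 62 other genes of G2/M and mitosis, CCNB1, the mitotic cyclin, changed by -0.77 ± 0.17 (limma adjusted p = 0.0392) and PLK1, a mitotic kinase, by -0.87 ± 0.19 (adjusted p = 0.0404). Of these 62 genes 50 were negative and 23 had an unadjusted p under 0.05, all lower, and the median was -0.29 (-0.14 without array 3). Without array 3 of TNF plus apigenin neither CCNB1 (-0.64) nor PLK1 (-0.66) was called; both were also lost without TNF 1, 2 or 3 or TNF plus apigenin 2.

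The promoter of PLK1 is shown with its match to the cell-cycle homology region (CHR, TTTGAA), a short element common in promoters of mitotic genes.
PLK1 (chr16:23678639-23678938, plus strand): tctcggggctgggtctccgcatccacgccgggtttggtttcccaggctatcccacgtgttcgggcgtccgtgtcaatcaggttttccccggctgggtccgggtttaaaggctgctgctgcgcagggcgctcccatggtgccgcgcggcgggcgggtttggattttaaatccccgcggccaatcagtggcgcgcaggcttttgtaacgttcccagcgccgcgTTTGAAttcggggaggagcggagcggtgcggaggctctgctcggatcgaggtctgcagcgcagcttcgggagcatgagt
A CHR match on either strand was present in 31 of 52 G2/M genes with a promoter available (59.6%) and in 9 of 12 kinesins. The match was present in 15.4% of all promoters and in 10.1% of those of tested genes. Among called genes with a promoter, 15 of the 81 that fell (18.5%) and 9 of the 40 that rose (22.5%) held one.

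Genes of the G1/S transition and DNA replication lay to the other side, and none passed the test. Of 46 tested, 36 were positive and 10 had an unadjusted p under 0.05, all higher, with a median of 0.17 (0.29 without array 3 of TNF plus apigenin, where all genes had 0.08). RFC4, a clamp loader subunit, changed by 0.75, with an interval from 0.36 to 1.15 (limma adjusted p = 0.0724), and CCND1, cyclin D1, by 0.67 (adjusted p = 0.152). Homologous recombination and Fanconi anemia genes had a median of 0.23 with 16 of 20 positive, and RMI2 changed by 0.70 (limma adjusted p = 0.0972). Among 25 CDK inhibitors and p53-responsive genes none passed. GADD45B, a stress-response gene, changed by 0.92 (limma adjusted p = 0.0684) and the CDK inhibitor CDKN1A by 0.54, with an interval from 0.16 to 0.92 (adjusted p = 0.218). None of 27 apoptosis regulators passed either; PMAIP1, which encodes the BH3-only protein NOXA, changed by 0.88 (limma adjusted p = 0.0694).

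**Figure D3:**
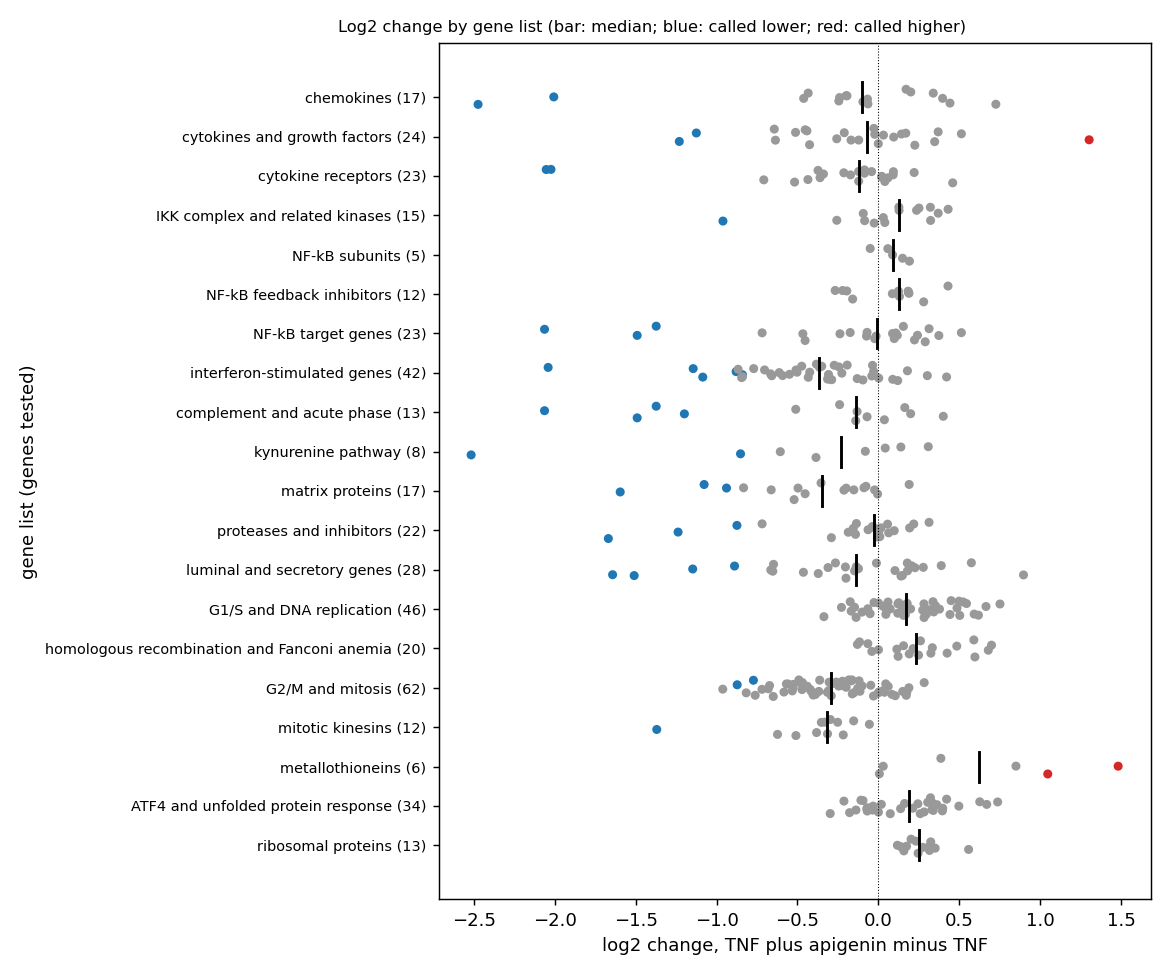
Log2 change (TNF plus apigenin minus TNF, x axis) of each tested gene (points) in 20 of the gene lists (rows, with the number tested); bars are list medians, blue points were called lower and red points higher. Interferon-stimulated genes (median -0.37) and G2/M genes (-0.29, or -0.14 without array 3 of TNF plus apigenin) lie mostly left of 0, while all 12 tested NF-kB feedback inhibitors lie between -0.27 and 0.43.

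Transport and lipid mediator genes gave 5 falls. Among 22 amino acid, peptide and sugar transporters, SLC1A3, a glutamate transporter, fell by 1.23 ± 0.18 (limma adjusted p = 0.00383), from 7.46 ± 0.05 to 6.23 ± 0.33 (SD, n = 3 each). SLC6A14, a broad amino acid transporter, fell by 1.31 ± 0.22 (limma adjusted p = 0.00822). SLC2A12, a sugar transporter, changed by -0.87 (adjusted p = 0.0156) and lost its call without TNF 2 or 3 or TNF plus apigenin 2 or 3 (changes between -0.94 and -0.77). ABCC4, an exporter of cyclic nucleotides and prostaglandins, fell by 1.04 ± 0.17, or 2.06-fold (limma adjusted p = 0.00709), and stood 1.17 above control with both agents. PTGES, an inducible prostaglandin E synthase, changed by -1.32 (limma adjusted p = 0.0115) and lost its call without TNF 1 or 2 or TNF plus apigenin 2 or 3 (changes between -1.47 and -1.19). The small heat shock protein gene HSPB1, 1 of 15 heat shock genes tested and the only call among them, changed by -1.01 (limma adjusted p = 0.0186). Its call was lost in 4 fits, without TNF 1 or 2 or TNF plus apigenin 2 or 3 (changes between -1.15 and -0.84). VTCN1, an inhibitory ligand of T cells, read 7.95, 8.22 and 8.02 with TNF and 7.01, 6.83 and 6.27 with both agents, a fall of 1.36 ± 0.20 (limma adjusted p = 0.00312). It was the only call among 21 antigen presentation and checkpoint genes.

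Among the genes that rose, FOSL1, an AP-1 subunit also called FRA1, read 4.47, 5.04 and 4.69 with TNF and 6.96, 6.37 and 5.78 with both agents. It rose by 1.64 ± 0.25, or 3.11-fold (limma adjusted p = 0.00383), with the wider spread in the group given both agents. FOSL1 was the only call among 19 AP-1 and immediate early factors. MT1F, a metal-binding metallothionein with close relatives, read 5.40, 5.07 and 5.51 with TNF and 7.58, 6.46 and 6.39 with both agents, and rose by 1.48 ± 0.26 (limma adjusted p = 0.0114). Its call was lost without TNF 2, and the changes with 1 array left out lay between 1.10 and 1.69. SLC30A1, which exports zinc and shares metal control with the metallothioneins, changed by 1.05 (limma adjusted p = 0.0208), and the 6 metallothionein and zinc genes tested were all positive with a median of 0.62. Only MT1F and SLC30A1 were called among them, and MT2A (0.03) and MT3 (0.01) were near 0. HMOX1, haem oxygenase, changed by 0.85 (limma adjusted p = 0.0278) and was the only call among 23 NRF2 antioxidant genes, whose median was -0.01 (0.09 without array 3 of TNF plus apigenin). The SLC30A1 call was lost without any TNF array or TNF plus apigenin 1 or 2 (changes between 0.90 and 1.15), and the HMOX1 call without TNF 1 or 2 or any array of TNF plus apigenin (0.70 to 0.93).

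Many of the largest rises were in genes outside the usual pathways. RASA4B, a Ras GTPase-activating protein with near-identical copies, rose by 1.89 ± 0.31, from 3.07 to 4.97 (limma adjusted p = 0.00709). With both agents it was 0.43 above control, against a change of -1.46 from control with TNF alone (limma adjusted p = 0.0477). BCO2, a carotenoid-cleaving enzyme, rose by 1.5 ± 0.25 (limma adjusted p = 0.00711). The pseudogenes ADAM20P1 (2.26 ± 0.26, limma adjusted p = 0.000719) and KLRA1P (1.75 ± 0.29, adjusted p = 0.00709) and the cilium gene CFAP43 (1.74 ± 0.21, adjusted p = 0.000735) also rose. Of these, RASA4B, ADAM20P1 and CFAP43 were near background with TNF, as was RN5S153, annotated as 5S ribosomal RNA-like, which rose by 2.37 ± 0.34 (adjusted p = 0.00291). MGAM, an intestinal glucosidase, rose by 1.40 from background (adjusted p = 0.0114), and its call was lost without TNF 1 or TNF plus apigenin 1 (1.33 to 1.45). The call of C16orf46 (1.36, adjusted p = 0.0207) was lost without TNF 1 or 2 or TNF plus apigenin 1 or 2 (1.25 to 1.54).

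Long non-coding RNA genes were 16 of the 61 genes that rose (26.2%) and none of the 108 that fell, while they were 6.33% of the genes tested. With quantile normalization 23 rose and 5 fell. Protein-coding genes were 83.4% of those tested, 37 of those that rose and 107 of those that fell. HIF1A-AS2, antisense to the hypoxia factor gene HIF1A, read 3.84, 4.81 and 5.32 with TNF and 6.74, 7.15 and 6.31 with both agents, a rise of 2.08 ± 0.37 (limma adjusted p = 0.0114). Its call was lost without TNF plus apigenin 2, and the leave-one-out changes lay between 1.67 and 2.41. DLGAP1-AS2 rose by 1.53 ± 0.21 (limma adjusted p = 0.00214), from 5.90 to 7.43, and IDI2-AS1 by 1.54 ± 0.23 (adjusted p = 0.00383). LHFPL3-AS2 (1.73, adjusted p = 0.0115) rose from background, and ZNRD2-DT changed by 1.40 (adjusted p = 0.0278). LHFPL3-AS2 lost its call without TNF 1 or TNF plus apigenin 1 or 2 (1.56 to 1.89) and ZNRD2-DT without TNF 1 or 2 or TNF plus apigenin 1 or 2 (1.22 to 1.6). Among 18 listed long non-coding RNA genes, whose median was 0.31, SNHG5, a host gene of small nucleolar RNAs, was the only call (0.89, limma adjusted p = 0.0324). It was lost without any TNF array or TNF plus apigenin 1 or 2 (0.76 to 1.0). The sources used here do not say how strand was treated, so an antisense RNA cannot be told apart with certainty from its sense partner.

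**Figure D4:**
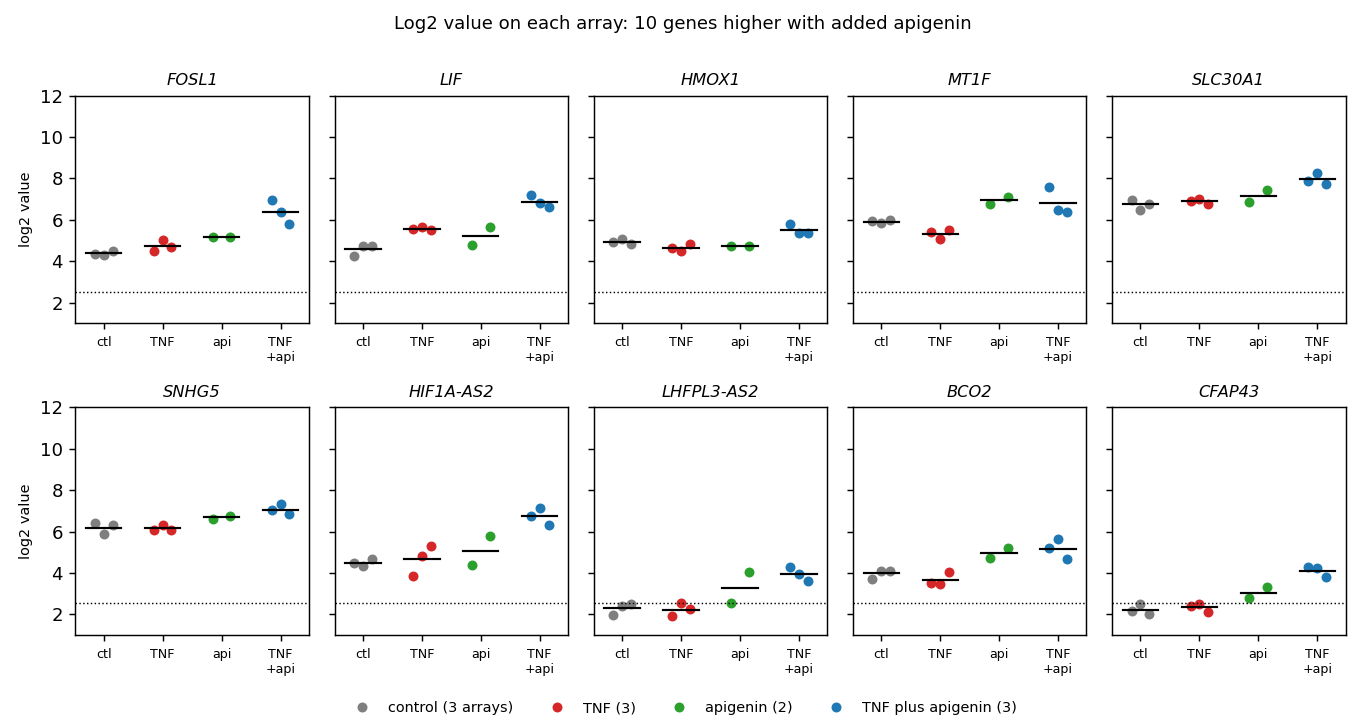
Log2 value on each array (points) and group mean (bars) for 10 genes called higher when apigenin was added to TNF; the dotted line is the median probe set mean, 2.53. In each panel the 3 blue points (TNF plus apigenin) lie above the 3 red points (TNF), by the widest mean difference in HIF1A-AS2 (2.08).

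MIR21, the gene of an abundant and widely studied oncogenic microRNA, was outside the naming rule and was chosen after its values were seen. Its probe set read 5.96, 5.95 and 5.78 with TNF and 7.33, 7.22 and 6.86 with both agents, and rose by 1.24 ± 0.21, or 2.36-fold (limma adjusted p = 0.00865). The array does not tell the primary transcript from the hairpin or the mature arms. The RefSeq mature sequence of the 5p arm (GRCh38.p14, chr17:59841273-59841294, plus strand) is given with its seed, bases 2 to 8, in capitals.
hsa-miR-21-5p: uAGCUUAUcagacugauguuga
MIR21 was the only microRNA gene called among 449 tested.

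Several lists showed no call. None of 10 aryl hydrocarbon receptor targets passed: CYP1A1, the classic target, changed by -0.02, with an interval from -0.50 to 0.46, and CYP1B1 by 0.04, with an interval from -0.31 to 0.38. With apigenin alone against control these genes changed by 1.73 (limma adjusted p = 0.00236) and 0.97 (adjusted p = 0.0098). All 13 ribosomal protein genes of the list were positive, with a median of 0.25 and none called; RPS6 changed by 0.56 (limma adjusted p = 0.232). Of 34 genes of ATF4 and the unfolded protein response, 22 were positive with a median of 0.19; DDIT4, an inhibitor of mTOR signalling, changed by 0.63 (adjusted p = 0.121). The 19 MAPK feedback genes had a median of 0.26 (0.42 without array 3 of TNF plus apigenin), with DUSP6 at 0.55 (adjusted p = 0.233), and the 20 FOXO-related genes a median of -0.17, with FBXO32, a ubiquitin ligase, at -1.21 (adjusted p = 0.0546). The 12 EGFR family and ligand genes had a median of -0.12, with EGF at -0.78 (adjusted p = 0.214). Cholesterol and fatty acid synthesis (23 genes), hypoxia and glycolysis (31) and histones (12) had medians between -0.03 and 0.01 (0.07 to 0.12 without array 3).

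The addition of apigenin was also set beside apigenin without TNF, which rests on separate arrays (2 of apigenin, 3 of control). Apigenin alone gave 581 calls (3.66% of genes), 35 higher (0.221%) and 546 lower (3.44%), with a median change of -0.18 over all genes. Array 1 of apigenin had the lowest median over tested genes (3.89) and the narrowest interquartile range (2.40) of all 11 arrays. How the counts without TNF depend on this array was not tested. Of all 15865 genes, 11472 were negative and 4393 positive with apigenin alone, which is the background for the counts that follow. Of the 108 genes that fell with TNF present, 103 were also negative without TNF and 74 were called lower there. These 74 are 68.5% of the genes lower with TNF and 13.6% of those lower without it. Of the 61 genes that rose with TNF present, 54 were positive without it and 4 were called higher, which is 6.56% of the former and 11.4% of the 35 higher calls without TNF. No gene was called in opposite directions. Across all 15865 genes, which are not independent replicates, the changes had a Pearson correlation of 0.461. SLITRK6 changed by -1.54 without TNF, KMO by -1.62, MUC1 by -1.95, SPDEF by -2.44 and KIF20A by -1.66, all called lower. CCL2 (-0.11), CXCL10 (0.03), IL7R (-0.06) and MMP13 (0.13) were near 0 without TNF. Control levels of CCL2 (2.51), CXCL10 (2.42) and MMP13 (1.72) were at background, so a fall could not have been measured there. Control IL7R (3.29) was within 1 log2 unit of background (2.53), so only a small fall could have been measured. FOSL1 changed by 0.79 (limma adjusted p = 0.127), LIF by 0.64 (adjusted p = 0.177) and MT1F by 1.02 (adjusted p = 0.0696) without TNF.

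The difference between the effect of apigenin with TNF and without TNF was tested directly, and 4 genes passed (0.0252% of genes, with 0.0126% in each direction; 1294, or 8.16%, at an unadjusted p under 0.05). For CXCL10 the difference was -2.03 ± 0.27 (limma adjusted p = 0.0183) and for MMP13 -1.80 ± 0.26 (adjusted p = 0.0261), both at background without TNF, where no fall could be measured, so these sizes depend on that floor. For CLCA2, a regulator of chloride currents, it was 2.12 ± 0.27 (limma adjusted p = 0.0177): apigenin alone lowered it from 6.81 to 4.79, while with TNF it read 5.03 without and 5.14 with apigenin. For STAC2, an adaptor of calcium channels, it was 1.52 ± 0.23 (limma adjusted p = 0.0317), with levels of 4.08 in control, 2.84 with apigenin, 2.78 with TNF and 3.06 with both. The last 3 levels are near background (2.53), so a further fall of STAC2 with TNF could hardly be measured and its difference also depends on the floor. The difference for CCL2 was -2.37 ± 0.44 (adjusted p = 0.103), for IL7R -1.97 ± 0.33 (adjusted p = 0.0779) and for CYP1A1 -1.75 ± 0.34 (adjusted p = 0.137), and these did not pass. Control CCL2 (2.51) was at background and control IL7R (3.29) near it, so the sizes for both genes also depend on the floor. None of the 4 calls held whichever of the 11 arrays was left out. The fit called 0 genes without control 3, TNF 1, or TNF plus apigenin 2 or 3, and 1 gene without TNF 2 or TNF plus apigenin 1. It called 2 without apigenin 1 and 7 without apigenin 2. The median difference over all genes was 0.23, and it was 0.07 without apigenin 1 and 0.38 without apigenin 2.

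**Figure D5:**
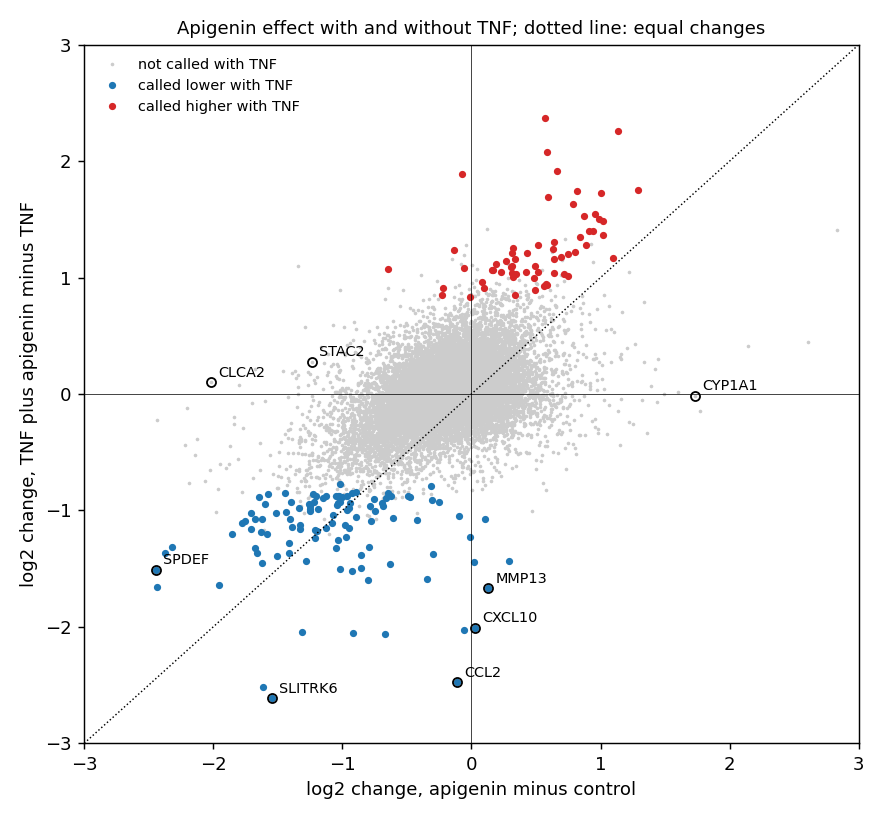
Log2 change with apigenin in cells without TNF (x axis, apigenin minus control) against that in cells with TNF (y axis, TNF plus apigenin minus TNF); each point is a gene and the dotted line marks equal changes. Most blue points (called lower with TNF) lie left of 0, while CCL2 and CXCL10 lie near 0 on the x axis (-0.11 and 0.03) and CYP1A1 near 0 on the y axis (-0.02).

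Markers of other cell types were examined as lists. Of the endothelial list CDH5, VE-cadherin, fell by 1.25 ± 0.19 (limma adjusted p = 0.00451), from 4.38 to 3.13. KDR, VEGF receptor 2, changed by -0.74 (limma adjusted p = 0.125), and CLDN5, the other marker tested, by 0.06. VWF, TEK and EMCN were below background on average. The summed linear level of the 6 endothelial markers measured was 49.3 to 64.5 with TNF, 36.5 to 39.5 with both agents, 43.1 to 52.4 in control and 30.9 to 32.6 with apigenin. Of the 9 macrophage markers 3 lay 1 log2 unit above background with TNF, none was called, and CD163 and MRC1 were below background. Of the 6 tested, 3 were positive and 3 negative, with a median change of 0.12. CD14 changed by -0.75 (limma adjusted p = 0.116), CD68 by 0.54 and FCER1G by 0.56. The summed level of the 9 macrophage markers was 112 to 125 with TNF and 107 to 140 with both agents. No marker of T and B cells or fibroblasts stood 1 log2 unit above background with TNF, and none was called. The part of other cell types in the results was not tested.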

How the data were processed

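RNA of MDA-MB-468 cells was labelled with biotin and hybridised to 11 arrays, 1 per sample. The deposited values are the authors' log2 values per probe set, and the submitters' processing notes name Affymetrix Expression Console as the tool. Its version, summarisation and normalization were not given in the sources used here, and the log base was inferred from the range, 0.38 to 12.3. Of 53617 probe sets, 23871 had 1 gene symbol in the array annotation, 1842 had several and 27904 had none, which gave 22395 genes (names updated through RefSeq, GRCh38.p14). Genes that reached 2.53 on 2 or more arrays, 15865 in all, were tested.

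All 11 arrays were fitted together, 1 mean per group, with limma 3.58.1 in R 4.3.3 (lmFit, eBayes, 7 residual degrees of freedom). P-values are two-sided and Benjamini-Hochberg adjusted over all tested genes, with calls at 0.05. Errors of changes are moderated standard errors, errors of means are SD, and intervals are 95%. The fit was tested on simulated data. Comparisons with control come from the same fit, and those of TNF and of both agents share arrays with the main comparison. They are given beside it as values, with call counts and, for some genes, adjusted p. The members and the 46 gene lists (821 genes tested) were chosen with earlier results of these data known. Named genes were the 15 highest and 15 lowest calls whose arrays do not overlap and whose higher mean is at least 3.53, every called list member, up to 3 members of lists with no call, 13 tested genes picked by name, and genes called for the difference with and without TNF. TXNIP, also picked, did not pass the filter. Alternatives were other normalizations, filters, variance settings, array weights, array subsets, a replicate block and the mean of a gene's probe sets; the subset without the 3 narrowest arrays was added after seeing the data. Replicate numbers were not used to pair arrays.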

Additional observations from a re-analysis of the deposited data

Results flagged for a closer look

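The effect of apigenin with TNF differed from its effect without TNF, by the direct test of that difference, for 4 genes. The difference was 2.12 for CLCA2, 1.52 for STAC2, -2.03 for CXCL10 and -1.80 for MMP13 on the log2 scale. CXCL10 (2.42) and MMP13 (1.72) were at or below background (2.53) in control cells, where a fall with apigenin could not be measured, and STAC2 was near it with TNF (2.78) and with apigenin (2.84), so these 3 differences depend on the floor. When any of the 11 arrays was left out, it lay between 1.97 and 2.26 for CLCA2, 1.47 and 1.56 for STAC2, -2.22 and -1.85 for CXCL10, and -1.96 and -1.64 for MMP13. With the 3 arrays of narrowest distribution left out the adjusted p of limma was 0.169 for CLCA2 and CXCL10, 0.216 for STAC2 and 0.248 for MMP13. The cause was not tested.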

How the results depend on the processing

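The count of 169 called genes stayed within 1.5 times under 14 of the 21 alternatives, and it was 510 with quantile normalization (174 higher, 336 lower) and 391 with array weights (221 higher, 170 lower). Leaving out 1 array gave 85 to 197 calls: 90 without TNF 1, 85 without TNF 2, 98, 91 and 107 without TNF plus apigenin 1, 2 and 3. The share of calls that were higher was 36.1%, and 55.1% without TNF plus apigenin 3, 56.5% with array weights and 61.6% (106 of 172) without the 3 narrowest arrays, of which 107 were among the 169. For the difference with and without TNF the 4 calls became 7 with quantile normalization, 10 with the stricter filter, 8 with trend and robust variances, 0 with the replicate block, 0 without the 3 narrowest arrays, and 0 to 7 with 1 array left out. The causes were not tested; fewer arrays or genes entered some fits.

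Same-numbered arrays of TNF and TNF plus apigenin had deviations that correlated at 0.24, 0.02 and 0.25. Arrays of these groups with different numbers correlated between -0.39 and 0.19. These values do not settle whether the numbers pair arrays, and the main fit did not use the numbers. With the replicate block 174 genes were called, 158 of them among the 169, and the differences for CLCA2 (2.15), CXCL10 (-2.0), STAC2 (1.52) and MMP13 (-1.76) were not called.

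Of 1342 combinations of a called named gene and an alternative, 1192 kept the call, 150 lost it and 0 changed sign. Some genes that were not called changed sign: CXCL8 was 0.01 without the 3 narrowest arrays and 0.01 with array weights, and CYP1A1 was 0.16 and 0.10. With 1 array left out the changes ranged from -0.31 to 0.10 for CXCL8, -0.18 to 0.16 for CYP1A1, -0.07 to 0.31 for RELB, -0.11 to 0.05 for CD79A, 0.00 to 0.19 for THY1, -0.09 to 0.02 for COL1A1, -0.11 to 0.24 for TNF, -0.06 to 0.10 for CYP1B1 and -0.02 to 0.22 for CLCA2. Signal over background limits genes near 2.53, where a fall cannot be followed further.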

Other observations

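The bitter taste receptor genes TAS2R3, TAS2R4 and TAS2R5, which lie side by side on chromosome 7, all rose when apigenin was added to TNF; they were chosen after their values were seen. TAS2R3 read 3.05, 3.22 and 3.23 with TNF and 4.56, 4.27 and 4.28 with both agents, a rise of 1.2 ± 0.19 (limma adjusted p = 0.00564). TAS2R4 changed by 1.16 (adjusted p = 0.0404) and TAS2R5 by 1.04 (adjusted p = 0.0451), and both of these calls were lost when any 1 of the 6 arrays was left out (changes between 1.01 and 1.27 for TAS2R4, 0.91 and 1.11 for TAS2R5). All 3 lay within 2 log2 units of background with TNF.

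Among calls below the level floor of the naming rule, also chosen after their values were seen, LINC00880 rose from 1.56 to 3.47 (limma adjusted p = 0.000275) and FRZB, a secreted WNT antagonist, from 1.74 to 3.43 (adjusted p = 0.000561). Both were at or below background with TNF, so no fold is given.

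Further secreted or surface genes fell that stand on none of the lists, chosen in the same way. SEMA3C, a semaphorin, read 7.83, 8.09 and 8.01 with TNF and 6.51, 6.70 and 6.31 with both agents, a fall of 1.46 ± 0.19 (limma adjusted p = 0.00136). PGLYRP4, which binds bacterial peptidoglycan, fell by 1.44 ± 0.24 (adjusted p = 0.00712).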
